A study of Homo sapiens with 8 samples.

Results

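Transcript levels of 8 kidney lineage transcription factors, PAX2, PAX8, HNF4A, HNF4G, LHX1, WT1, EMX2 and TFCP2L1, were examined in UM-RC-2, an established line of clear cell renal cell carcinoma. The genes were taken by symbol, and all 8 were found among the 43682 symbols of the RNA count tables. UM-RC-2 cells carry a mutation of VHL, the tumour suppressor that marks hypoxia-inducible factor alpha subunits for degradation. They were infected with lentivirus to express either VHL or a construct that the labels call VEC, and all cells, VEC included, were selected in blasticidin at 10 µg/ml. RNA was sequenced from 2 VEC and 2 VHL libraries, numbered 1 and 2 in each group, with total RNA given as the material of both number 1 libraries and polyA RNA as that of both number 2 libraries. No label says whether same-group libraries came from separate cultures, so the spread between these libraries may be technical. The main fit compares VHL with VEC within each number. Its p-values rest on how far such differences vary between the numbers, as edgeR estimates it with information shared over all genes. They do not measure the spread of a gene's own 2 pairs alone. The promoter that drives the constructs and the content of VEC are not given in the sources used here.

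Kidney lineage factors act in a sequence during nephron formation. PAX2, PAX8 and LHX1 set up the nephric lineage, WT1 acts in nephron progenitors and later in podocytes, and EMX2 is needed in the ureteric bud. HNF4A drives the proximal tubule programme, HNF4G is its closest relative among nuclear receptors, and TFCP2L1 acts in the distal nephron and collecting duct. PAX8 is widely used as a marker of renal tumours, which often keep it.

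UM-RC-2 cells expressed 5 of the 8 factors in every library, namely PAX2, PAX8, HNF4G, LHX1 and WT1. HNF4A was at background level. EMX2 reached 1 CPM in the replicate 2 libraries alone. TFCP2L1 reached it in the VHL libraries alone, with 0.702 CPM in VEC replicate 2. TFCP2L1 was also the only tested member that passed the test of VHL against VEC, and it was higher with VHL. Levels are CPM, counts scaled to the library size with TMM normalisation. A gene was counted as expressed where it reached 1 CPM and exceeded the 95th percentile of 383 odorant receptor genes in each of the 4 libraries. By this rule 54.7% of 19253 protein-coding genes and 0 of the 383 odorant receptors were expressed. POU5F1, 1 of 29 factors of other lineages, also passed it. In replicate 1 POU5F1 stood at 2.94 (VEC) and 1.88 (VHL) CPM, above PAX2 (1.34 and 1.18) and LHX1 (1.60 and 1.34). In bulk RNA, fewer cells with a transcript and less transcript per cell cannot be told apart.

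Promoter windows from RefSeq (GRCh38.p14, 250 bases before to 50 after a start site) were searched on both strands for the cores ACGTG and GCGTG, which bind hypoxia-inducible factors. The window of TFCP2L1 is shown because it was the member called. One or other of the hypoxia cores was present in 48.4% of all 35116 windows. The TFCP2L1 window (chr2:121285153-121285452, minus strand) holds 1 hypoxia core, GCGTG on the opposite strand, which reads CACGC in capitals, at position -130 from the start site. Windows were found for 6 of the 8 members, and no binding was measured. Among the members that were not called, PAX2 and WT1 also held hypoxia cores, while PAX8, HNF4A and EMX2 held none.
TFCP2L1: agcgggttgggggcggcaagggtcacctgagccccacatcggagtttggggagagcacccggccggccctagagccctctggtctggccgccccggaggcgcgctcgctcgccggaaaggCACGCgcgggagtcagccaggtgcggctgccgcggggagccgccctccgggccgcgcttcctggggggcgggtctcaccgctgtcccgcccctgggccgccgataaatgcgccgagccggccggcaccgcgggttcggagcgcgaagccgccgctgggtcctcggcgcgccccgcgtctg

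The libraries held between 16230291 and 50027348 counts and separated by number. Over 21673 genes, which are not independent replicates, log2(CPM + 1) correlated at 0.991 and 0.978 (Pearson) within a replicate number, against 0.502 and 0.531 within a group. The introduced gene was higher in VHL in both pairs, at 37.1 (VEC) against 146 CPM in replicate 1 and 88.9 against 151 CPM in replicate 2. Replicate 2 also held genes that replicate 1 did not. Of 19253 protein-coding genes, 954 (4.96%) had at most 3 counts in both replicate 1 libraries and at least 1 CPM in both replicate 2 libraries, and 16 showed the reverse. Of 29 factors of other lineages, 1 reached 1 CPM in each replicate 1 library (POU5F1), and 4 (VEC) and 3 (VHL) did in replicate 2. These included NEUROD1, a neuronal factor, with 3 and 0 counts in VEC and VHL of replicate 1 and 4280 and 7808 in replicate 2. CRX, a photoreceptor factor, was at 0 in both replicate 1 libraries and at 3314 (VEC) and 2608 (VHL) counts in replicate 2. VHL was compared with VEC within replicate numbers because the labels give another material for each number. Earlier results of these data were known when that choice was made. The pseudogene share of all counts was low with replicate 1, at 1.37% (VEC) against 2.07% (VHL), and high with replicate 2, at 31.3% against 24.9%, so replicate 2 CPM have a smaller protein-coding base, and VEC and VHL differ in it.

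As to cell identity, 6 of 9 epithelial and renal carcinoma markers were expressed in every library, where 54.7% of protein-coding genes were. They were KRT8, KRT18, VIM, CDH2, CDH6 and CA9, while EPCAM and KRT19 had at most 3 counts in any library. CA9 was near the 1 CPM minimum in VHL, at 67.5 (VEC) against 1.55 CPM (VHL) in replicate 1 and 61.8 against 1.40 CPM in replicate 2. NDUFA4L2 had 49 (VEC) and 4 (VHL) counts in replicate 1 and 11 and 2 in replicate 2. The summed level of 4 endothelial markers was at most 0.0864 CPM in any library. That of 4 fibroblast markers was at most 0.13 CPM in replicate 1 and between 1.49 and 1.59 CPM in replicate 2. That of 5 leukocyte markers was at most 0.214 CPM in replicate 1 and between 45.4 and 45.6 CPM in replicate 2, where LYZ held 1989 (VEC) and 1793 (VHL) counts. The part of these markers in the results was not tested.

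**Figure D1:**
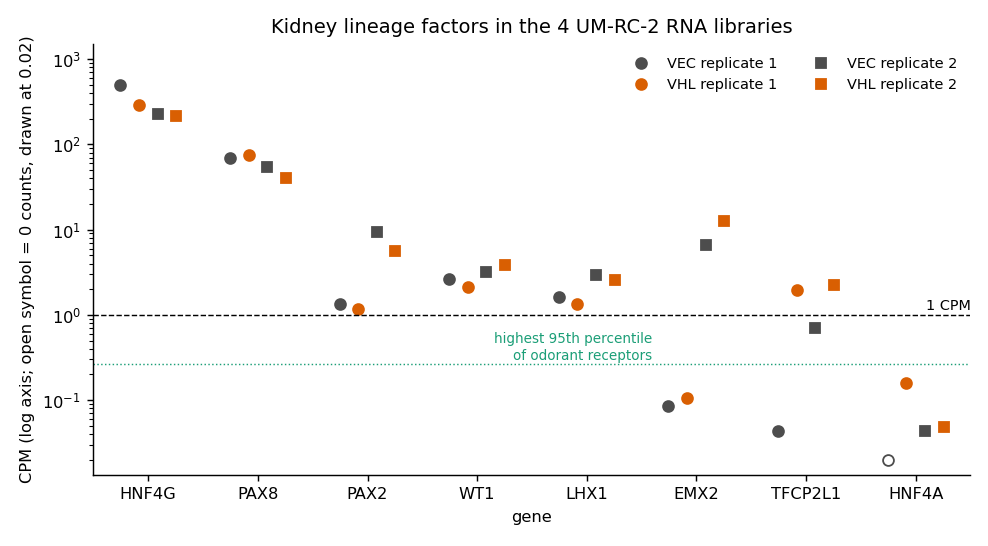
Level of each of the 8 factors in each RNA library, as CPM on a log axis (circles for replicate 1, squares for replicate 2, grey for VEC, orange for VHL), with the 1 CPM minimum and the odorant receptor background as lines. HNF4G, PAX8, PAX2, WT1 and LHX1 lie above 1 CPM in all 4 libraries, HNF4A lies below both lines throughout (its open symbol stands for 0 counts), and EMX2 is split by replicate number. CPM are not corrected for transcript length, so heights of different genes are not comparable.

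PAX8, the paired-box factor of the nephric lineage, was expressed in every library. It had 1592 counts (68.8 CPM) in VEC against 1416 (75.9 CPM) in VHL for replicate 1, and 2458 (53.9 CPM) and 1665 (40.8 CPM) in replicate 2. The VHL level was thus slightly above VEC in replicate 1 and below it in replicate 2, and the groups overlapped. The ratio of VHL to VEC was 1.10 in the replicate 1 pair (95% Clopper-Pearson interval 1.03 to 1.19) and 0.756 in the replicate 2 pair (0.71 to 0.805). These intervals, like all ratios below, cover counting error alone. In the fit with the replicate number as a block the log2 change was -0.13 ± 0.21 (SE, n = 2 per group). It was not called by edgeR's quasi-likelihood test (adjusted p = 0.943, by Benjamini and Hochberg). PAX8-AS1, a noncoding gene that overlaps PAX8, had 577 and 518 counts in replicate 1 and 1303 and 1064 in replicate 2. No source used here says whether counting took account of strand, so reads of PAX8 and PAX8-AS1 cannot be told apart where they overlap.

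PAX2, which acts with PAX8 in the early nephric lineage, was close to the 1 CPM minimum in replicate 1 and above it in replicate 2. It had 31 counts (1.34 CPM) in VEC against 22 (1.18 CPM) in VHL for replicate 1, and 423 (9.28 CPM) and 231 (5.66 CPM) in replicate 2. VHL was the lower library of each pair, but both replicate 2 libraries exceeded both replicate 1 libraries. The ratio of VHL to VEC was 0.881 (interval 0.486 to 1.57) in replicate 1 and 0.61 (0.517 to 0.718) in replicate 2. The blocked log2 change of -0.53 ± 0.39 (SE) was not called (edgeR adjusted p = 0.704).

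LHX1, a LIM homeobox factor of the nephric duct and renal vesicle, was detected at a low level in every library. It had 37 counts (1.60 CPM) and 25 (1.34 CPM) in VEC and VHL of replicate 1, and 135 (2.96 CPM) and 106 (2.60 CPM) in replicate 2. VHL was again the lower library of each pair, and the groups overlapped. The blocked log2 change was -0.22 ± 0.46 (SE, edgeR adjusted p = 0.964), and both within-pair ratio intervals included 1. Its divergent neighbour LHX1-DT had 27 and 16 counts in replicate 1 and 30 and 16 in replicate 2.

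WT1, the zinc-finger factor of nephron progenitors and podocytes, was also present at a low level throughout. It had 61 counts (2.64 CPM) and 40 (2.14 CPM) in VEC and VHL of replicate 1, and 146 (3.20 CPM) and 157 (3.84 CPM) in replicate 2. VHL was the lower library in replicate 1 and the higher in replicate 2, and both ratio intervals included 1. The blocked log2 change was 0.02 ± 0.42 (SE, edgeR adjusted p = 0.999), and its sign turned to -0.03 with DESeq2 size factors. WT1-AS, which lies beside WT1 on the opposite strand, followed another course, with 4 and 14 counts in replicate 1 and 659 and 597 in replicate 2. The podocyte gene NPHS1 had 0 counts in both replicate 1 libraries and 1911 and 1665 in replicate 2.

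HNF4A and HNF4G, the nuclear receptor pair, differed in whether they were detected at all. HNF4A had 0 counts in VEC against 3 in VHL for replicate 1, and 2 and 2 in replicate 2. A count of 0 in VEC replicate 1 allows up to 0.13 CPM. No library held more than 3 counts, so HNF4A was not distinguishable from absence at this depth, and no change between the groups is given. It did not pass the filter on low counts. HNF4A-AS1 had 0 counts in replicate 1 and 57 and 58 in replicate 2.

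HNF4G had 11467 counts (495 CPM) in VEC against 5425 (291 CPM) in VHL for replicate 1, and 10278 (225 CPM) and 8775 (215 CPM) in replicate 2. VEC was the higher library of each pair, with a clear gap in replicate 1 and a narrow one in replicate 2, and the groups overlapped. The ratio of VHL to VEC was 0.587 (interval 0.568 to 0.606) in replicate 1 and 0.953 (0.926 to 0.981) in replicate 2. The blocked log2 change of -0.42 ± 0.25 (SE) did not pass (edgeR adjusted p = 0.532). HNF4GP1, a pseudogene of HNF4G, had 0 counts in replicate 1 and 71 and 41 in replicate 2. Reads from such a copy can be assigned to either gene, and the authors' treatment of them is not stated.

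EMX2, a homeobox factor of the ureteric bud, was split by replicate number. It had 2 counts in each replicate 1 library, against 299 (6.56 CPM) and 510 (12.5 CPM) in replicate 2. It is 1 of the 954 protein-coding genes seen in replicate 2 and at most at 3 counts in replicate 1. The ratio of VHL to VEC in replicate 2 was 1.90 (interval 1.65 to 2.20), and no ratio is given for replicate 1, where both libraries were below the floor of 3 counts. The blocked log2 change was 0.88 ± 0.46 (SE, edgeR adjusted p = 0.408). EMX2OS, its antisense gene, had 0 counts in all 4 libraries.

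**Figure D2:**
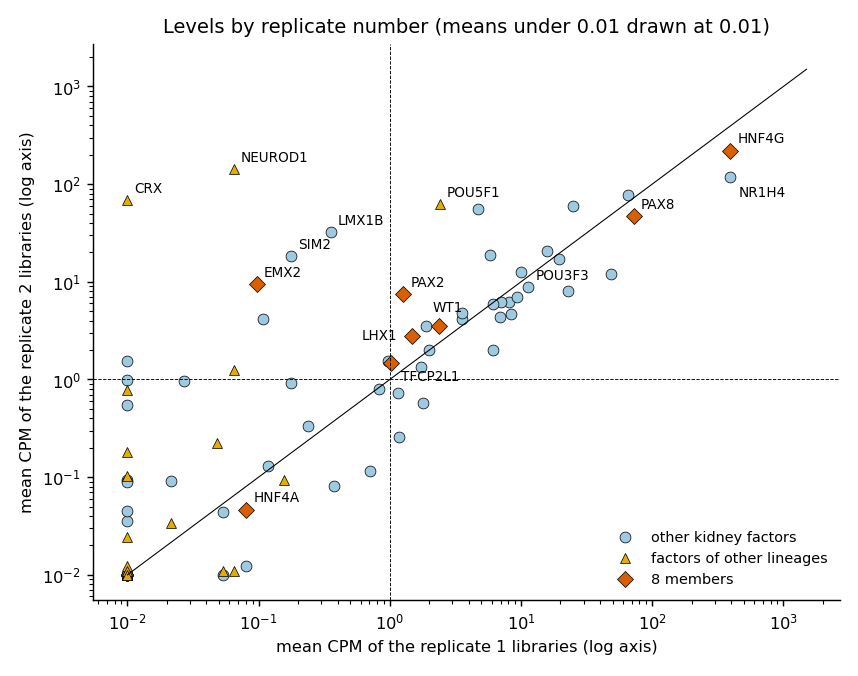
Mean CPM of the replicate 1 libraries against that of the replicate 2 libraries, both on log axes, for the 8 members (diamonds), other kidney factors (circles) and 29 factors of other lineages (triangles), with equality as a solid line and 1 CPM as broken lines. EMX2 lies in the upper left quadrant with NEUROD1 and CRX, above 1 CPM in replicate 2 alone, while HNF4G and PAX8 lie near the line.

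TFCP2L1, a CP2-family factor of the distal nephron and collecting duct, was higher in the VHL library of each pair. It had 1 count (0.0432 CPM) in VEC against 37 (1.98 CPM) in VHL for replicate 1, and 32 (0.702 CPM) and 92 (2.25 CPM) in replicate 2. Both VHL libraries exceeded both VEC libraries, so the groups did not overlap, but the share of all genes without overlap was not counted. The ratio of VHL to VEC was 45.9 in replicate 1, with an interval of 7.74 to 1862 because VEC held a single count, and 3.21 in replicate 2 (interval 2.13 to 4.96). The blocked log2 change was 2.57 ± 0.61 (SE, edgeR adjusted p = 0.00210, n = 2 per group), a 5.94-fold rise. Its size depended on the pair, at 1.62 on the log2 scale without the replicate 1 pair and 3.93 without the replicate 2 pair. With group as the only term, no replicate block, the change was 2.49 ± 1.91 (SE) and was not called (edgeR adjusted p = 0.99999). In the blocked fit of protein-coding genes alone it was 2.47 (edgeR adjusted p = 0.000239), and blocked DESeq2 gave 3.29 ± 1.58 (SE) with no adjusted p. Both VHL libraries passed 1 CPM and neither VEC library did, so TFCP2L1 was not among the factors expressed throughout.

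Over the 7 tested members, 1 was called higher and 0 lower with VHL, where the blocked fit called 0.749% of 24417 genes higher, 2.35% lower and 3.1% in either direction. With group as the only term edgeR called 0 of the 7 members and 0 of all genes, with 0 and 22 at an unadjusted p under 0.05. Their median blocked log2 change was -0.13, against -0.03 over all genes tested. EMX2 and TFCP2L1 were above 0 in both pairs (22.8% of all genes; for EMX2 the replicate 1 pair rests on 2 counts per library), PAX2, HNF4G and LHX1 below 0 in both (25% of all genes), and PAX8 and WT1 of opposite sign (52.3%). A p above the threshold does not show that a factor was unaltered, since the SE of PAX2, LHX1, WT1 and EMX2 were between 0.39 and 0.46 on the log2 scale.

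**Figure D3:**
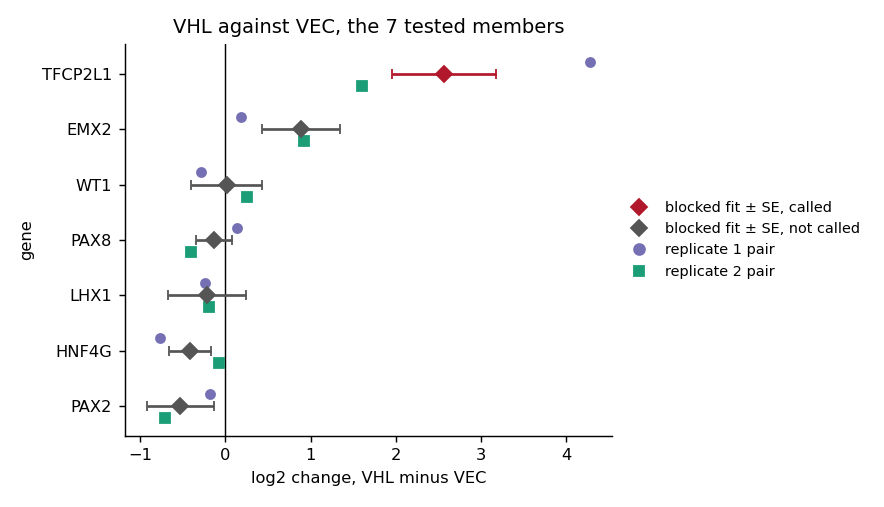
Log2 change of VHL against VEC for the 7 tested members, as the blocked estimate ± SE (diamonds, red where called) with the replicate 1 pair (circles) and the replicate 2 pair (squares). TFCP2L1 is the sole called gene at 2.57, PAX8 and WT1 have pairs on either side of 0, and the replicate 1 point of EMX2 rests on 2 counts per library.

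Other kidney factors gave the setting of the 8. Of 58 genes on 7 lists of such factors, 22 were expressed in all 4 libraries, where 54.7% of protein-coding genes were, and 40 were tested. The blocked fit called 4 of the 40 (0 higher, 4 lower), against 3.1% of all genes, and their median log2 change was 0.01. With group as the only term 0 were called, and 1 (POU3F3) had an unadjusted p under 0.05 (edgeR). The 4 were POU3F3, ELF3, MAF and FOXD1, 1 each from the lists of the loop and distal tubule, the collecting duct, the proximal tubule and the podocyte and stroma.

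POU3F3, a POU factor of the developing loop of Henle and distal tubule, fell furthest of the 4. Replicate 1 held 507 counts in VEC and just 15 in VHL (21.9 and 0.804 CPM), and replicate 2 held 773 and 35 (17.0 and 0.857 CPM). It was thus above 1 CPM in both VEC libraries and below it in both VHL libraries, with a blocked log2 change of -4.49 ± 0.36 (SE, edgeR adjusted p = 9.28e-32). MAF, a basic leucine zipper factor, went from 137 to 21 and from 255 to 111 counts (-1.61 ± 0.40, edgeR adjusted p = 0.00440). FOXD1, a forkhead factor of kidney stroma, went from 192 to 75 and from 395 to 136 counts (-1.22 ± 0.34, edgeR adjusted p = 0.0160). ELF3, an epithelial ETS factor, went from 1386 to 689 and from 759 to 303 counts (-0.92 ± 0.23, edgeR adjusted p = 0.00369). POU3F3, MAF and FOXD1 were lower in both VHL libraries than in either VEC library, while the groups of ELF3 overlapped in CPM. The share of all genes that separate in this way was not counted, and these genes were picked by being called.

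Among the other PAX genes PAX6 alone was expressed in all 4 libraries (127 and 124 counts in VEC and VHL of replicate 1, 94 and 78 in replicate 2), and PAX3 and PAX7 had 0 counts throughout. NR1H4, the bile acid receptor FXR, was at 491 and 290 CPM in replicate 1 and 134 and 103 CPM in replicate 2 (-0.57, edgeR adjusted p = 0.230). Of 11 nephron progenitor factors, SALL1, SIX4 and HOXD11 were expressed in all 4 libraries. Of the 7 tested 0 were called, too few to be read against the 3.1% of all genes. In both pairs 6 of the 7 were above 0 (22.8% of all genes) and 0 below (25%). Their median log2 change was 0.42, against -0.03 over all genes tested, and the list as a whole was not tested. SIX2, a marker of self-renewing progenitors, had at most 5 counts in a library.

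Genes that mark nephron segments were read as the products that such factors serve. Of 37 in the files, 9 were expressed in all 4 libraries, where 54.7% of protein-coding genes were. The test took in 24 and called 4, 2 higher and 2 lower with VHL, against 3.1% of all genes. With group as the only term 0 were called, and 1 (CUBN) had an unadjusted p under 0.05 (edgeR). CUBN, the endocytic receptor cubilin of the proximal tubule, had 8317 counts with VEC and 1313 with VHL in the replicate 1 pair and 6955 and 2148 in the other (-1.94 ± 0.24, SE, edgeR adjusted p = 1.99e-13). LRP2, which encodes its partner megalin, went from 60574 to 28236 and from 47945 to 26376 counts, but was not called (-0.75, edgeR adjusted p = 0.201). In the blocked fit of protein-coding genes alone, LRP2 was called (-0.77, edgeR adjusted p = 0.00274), as was PDZK1, a brush-border scaffold gene (-0.53, edgeR adjusted p = 0.0381), which made 6 segment genes.

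AQP3, a water channel of the collecting duct, went from 140 to 23 and from 117 to 29 counts (-2.06 ± 0.46, edgeR adjusted p = 0.000824). The 2 genes that rose are proximal tubule genes with few counts. ANPEP, a brush-border aminopeptidase, went from 25 to 88 and from 53 to 136 counts (1.79 ± 0.45, edgeR adjusted p = 0.00531). AQP1, a water channel, went from 8 to 32 and from 8 to 45 counts (2.47 ± 0.69, edgeR adjusted p = 0.0173). For each of these 4 called genes both VHL libraries lay on 1 side of both VEC libraries. They were picked by being called, and the share of all genes that separate so was not counted. The proximal tubule list thus held calls in both directions. The 3 loop and distal and 4 podocyte genes tested had no call, too few to be read against the 3.1% of all genes. Of the 37 segment genes, 8 had 0 counts in all 4 libraries, among them UMOD of the thick limb, AQP2 of the collecting duct and FBP1 of gluconeogenesis. Others were seen mainly in replicate 2. G6PC, which encodes the catalytic subunit of glucose-6-phosphatase, had 0 and 0 counts in replicate 1 and 1108 and 945 in replicate 2. PCK1, a gluconeogenic enzyme gene, had 14 and 12 counts and then 206 and 167. SLC4A1, an anion exchanger of the collecting duct, had 0 and 2 counts and then 2621 and 3647.

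**Figure D4:**
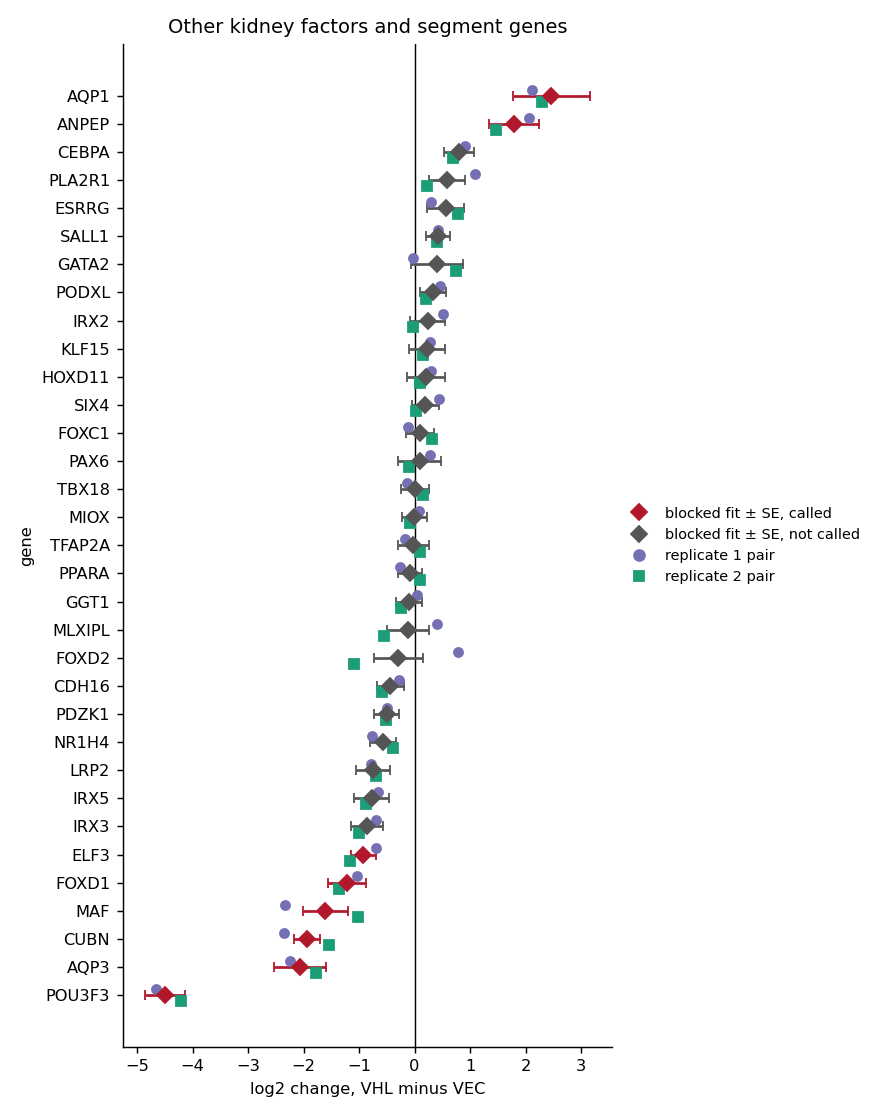
Log2 change of VHL against VEC for kidney factors and segment genes that were expressed in all 4 libraries or called, as the blocked estimate ± SE (diamonds, red where called) with each replicate pair (circles for 1, squares for 2). POU3F3 lies far to the left at -4.49, CUBN, AQP3, MAF, FOXD1 and ELF3 follow, and AQP1 and ANPEP are the called genes to the right.

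For 4 of the expressed members, the protein-coding genes with the most similar course over the 4 libraries were found among 12588 with a mean of at least 1 CPM, by Euclidean distance of centred log2 CPM. They were SLC2A4RG and PLXNA1 for PAX8 (0.03 and 0.08), TCEAL8 and NIPSNAP3A for HNF4G (0.06 and 0.07), EBPL and SNRPE for WT1 (0.05 and 0.07) and THOC3 and RAB11B for PAX2 (0.22 and 0.22). With 4 libraries that differ mainly by replicate number, such likeness is a description.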

How the data were processed

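RNA libraries of UM-RC-2 were placed in groups by their titles. The values used are the raw counts per gene symbol that the authors deposited, from hg19 alignments per the file headers. The submitters' processing notes name featureCounts and HOMER, with no version. The aligner, annotation, use of strand and handling of multi-mapping reads are not given in the sources used here. H3K27ac tables were not used, because their regions carry no positions.

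Tests across genes used edgeR 4.0.16 under R 4.3.3 (filterByExpr with a minimum count of 10, TMM, glmQLFit and glmQLFTest, two-sided). Of 43682 symbols, 24417 were tested, and calls had a Benjamini-Hochberg adjusted p under 0.05. The replicate number was a block, because the labels give another material for each number. Deviations from group means correlated at 0.983 between same-numbered libraries. The block leaves 1 residual degree of freedom, and edgeR shares information on variation between genes. A gene's SE thus does not follow its own pairs. LHX1, with pairs at -0.24 and -0.19, had an SE of 0.46. PAX8, with pairs at 0.14 and -0.40, had 0.21. SE were the log2 change over the square root of F. Within-pair log2 differences used a prior count of 2. The blocked edgeR fit was tested on simulated data, with the outcome not reported here. Alternatives were group alone, other scaling and filters, DESeq2 1.42.0, protein-coding genes alone and leaving out libraries.

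Gene classes came from RefSeq (GRCh38.p14), which matched 97.8% of symbols. Named genes were the members, VHL, called factors (at most 12) and segment genes (at most 8), the 3 highest factors of other lineages, genes overlapping or copying members, and nearest courses. PAX3, PAX6, PAX7, NR1H4, SALL1, SIX2, SIX4, HOXD11, LRP2, PDZK1, G6PC, PCK1, SLC4A1, NPHS1, UMOD, AQP2, FBP1, LYZ and the carcinoma markers were named after their values were seen. Some genes the rule names are not reported here. Members and lists were chosen with earlier results of these data known.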

Additional observations from a re-analysis of the deposited data

How the results depend on the processing

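The calls depended on the replicate block. With no replicate block, edgeR called 0 genes in all, 0 kidney factors and 0 segment genes, also when any library was left out, against 756, 4 and 4 with it, and the change of TFCP2L1 was 2.49 and not called. In the blocked fits, DESeq2 called 1215 genes, 3 kidney factors and 3 segment genes, DESeq2 size factors gave 5 and 5, a minimum count of 50 gave 4 and 3, and protein-coding genes alone gave 7 and 6, the added ones being NR1H4, CEBPA, IRX3, LRP2 and PDZK1. TFCP2L1 and the 8 called kidney genes kept their calls under each blocked edgeR alternative that tested them (AQP1 was not tested at the minimum count of 50). DESeq2 gave no adjusted p to 6 of the 9, namely TFCP2L1, MAF, FOXD1, AQP3, ANPEP and AQP1. Of the 8 called kidney genes it called POU3F3, ELF3 and CUBN alone. Its other kidney calls were 1 proximal tubule factor and further proximal tubule segment genes, none of them called in the main fit. WT1 turned to -0.03 with DESeq2 size factors, -0.017 with protein-coding genes alone and -0.041 in DESeq2, LHX1 moved to -0.26 in DESeq2, and NEUROD1 turned to -0.023 in DESeq2, though it was called with DESeq2 size factors (0.85) and with protein-coding genes alone (0.86) in edgeR. PAX8-AS1 turned to -0.028 and -0.027 (DESeq2 size factors, DESeq2), -0.0045 (no filter) and -0.0033 (minimum count of 50). The cause was not tested.

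Leaving out a library, with the block (1 pair left, no test) or without it, gave log2 changes of -2.26 to 1.39 for PAX2, -0.59 to 0.27 for PAX8, -0.93 to 0.17 for HNF4G, -0.83 to 0.34 for LHX1, -0.49 to 0.40 for WT1, -5.01 to 6.16 for EMX2 and 1.59 to 5.51 for TFCP2L1. For other genes the ranges were -2.36 to 0.41 for ELF3, -2.39 to -1.03 for MAF, -2.60 to -1.40 for AQP3, -2.51 to -1.31 for CUBN, -13.48 to 9.52 for NEUROD1, -13.11 to 12.80 for CRX, -4.28 to 3.45 for POU5F1, -0.13 to 0.20 for PAX8-AS1, -7.27 to 7.33 for HNF4A-AS1, -7.58 to 6.83 for HNF4GP1 and -3.39 to 5.48 for WT1-AS. In the group-only fits with a library left out, the replicate numbers are unequal between the groups by construction.

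The 5 members expressed became 3 at a minimum of 2 CPM (PAX8, HNF4G and WT1) and 1 (HNF4G) when the level of the highest factor of another lineage was required. The same 5 were found at 0.5 CPM and at the 99th percentile. In replicate 2 that percentile was 2.36 (VEC) and 2.48 (VHL) CPM, above TFCP2L1 at 0.702 and 2.25 CPM. Chosen after the data were seen, leaving out any single library also gave 5, the replicate 1 libraries alone gave 5, and the replicate 2 libraries alone gave 6, with EMX2 added. Counts per kilobase were not run, since transcript lengths were not used here. For PAX2, LHX1, TFCP2L1 and AQP1, the few counts in replicate 1 limit precision.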
